A study of Mus musculus with 15 samples.

Results

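AMP-activated protein kinase (AMPK) is an enzyme of 3 subunits, and 10 genes of its complex and its activation were followed here through all 15 brainstem RNA-seq libraries of the study. They are the catalytic subunit genes Prkaa1 and Prkaa2 (AMPKα1 and AMPKα2), the scaffold subunit genes Prkab1 and Prkab2 (β1 and β2), the nucleotide-binding subunit genes Prkag1, Prkag2 and Prkag3 (γ1 to γ3), the upstream kinase genes Stk11 (LKB1) and Camkk2 (CaMKKβ), and Strada, whose product holds LKB1 in its active form. The members were taken by symbol, and all 10 were found among the 57180 Ensembl identifiers of the count tables. The libraries came from C57BL/6 mice and fall into 5 groups of 3. One experiment held WT (AMPK+/+) and AMPKα2-/- (labelled AMPK-/-) brainstem, called neonatal here because the study describes its mice as neonatal, although the labels give no age, and the other held WT (LMX1B+/+), Lmx1b+/- and Lmx1b-/- brainstem from embryos of an age not given in the sources used here. Lmx1b is a homeodomain factor of dorsal-ventral patterning, and the study describes its homozygous loss as embryonic lethal. No agent was given to any group, no Cre line or tissue limit is named for either deletion, and the exons removed in the AMPKα2-/- line are not given in the sources used here. Whether the replicates were separate animals or pools is not stated, so the p-values measure the spread between libraries.

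The α subunit carries the kinase domain and becomes active when an upstream kinase phosphorylates a threonine in its activation loop. The β subunit joins α to γ and carries a glycogen-binding module, and the γ subunit binds AMP, ADP and ATP, which lets the complex respond when cellular energy falls. LKB1, in complex with STRADα and the scaffold MO25, is the main activating kinase under energy stress, whereas CaMKKβ, which is abundant in brain, activates AMPK when calcium rises. γ3 is known mainly from skeletal muscle.

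The coding stretch of the activation loop is shown because it holds the residue that both upstream kinases act on, and because it shows how reads of Prkaa1 and Prkaa2 can be told apart. It runs over 81 bases of exons 4 and 5, from the DFG to the APE motif of the kinase domain, in the GENCODE transcripts of build GRCm38 (Prkaa1 on chromosome 15, plus strand, and Prkaa2 on chromosome 4, minus strand). Both are given 5′ to 3′ on the coding strand, and capitals mark the bases at which the genes differ.
Prkaa1: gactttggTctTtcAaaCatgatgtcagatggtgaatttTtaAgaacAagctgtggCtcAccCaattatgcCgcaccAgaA
Prkaa2: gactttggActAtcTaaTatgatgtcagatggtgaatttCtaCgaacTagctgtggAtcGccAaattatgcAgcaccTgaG
The genes differed at 13 of these 81 bases and at 0 of the encoded residues, so that the loop, with its threonine at residue 183 of AMPKα1 and 172 of AMPKα2, is the same in both proteins. Over their whole coding sequences the identity was 71.2%, and the longest run of bases shared without a mismatch was 35 bases.
Shared run of Prkaa1 and Prkaa2: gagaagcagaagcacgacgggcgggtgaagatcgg
Between Prkab1 and Prkab2 the coding identity was 73.3% with a longest shared run of 23 bases, and between Prkag1 and Prkag2 it was 67.8% with a run of 15 bases. The treatment of reads that matched both genes is not given in the sources used here. Exons of Prkag1, Prkag2, Prkab2 and Stk11 overlap those of a gene on the opposite strand (711 bases for Prkag1 with B130046B21Rik), and 302 bases of Strada overlap Ccdc47 or Gm25556 on its own strand. The library kit keeps strand, but the strand setting of the counting is not stated, so that reads in these stretches are uncertain.

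Total counts were 14975095 to 17384171 in 4 of the neonatal libraries and 28833130 to 37441679 in the 9 embryonic libraries, but 291212 in neonatal WT 2 and 335986 in AMPKα2-/- 3. A count of 0 allows up to 9.98 CPM, which are counts relative to the TMM-normalized size of their library, in WT 2 and 9.07 CPM in AMPKα2-/- 3, against 0.175 to 0.198 CPM in the other neonatal and 0.0676 to 0.109 CPM in the embryonic libraries (3 counts of the scaled total, counting error only). Neonatal WT 3 stood apart by a list of 15 skeletal muscle genes, whose summed level was 1087 CPM there with 0 of them at 0 counts, 22.7 and 23.3 CPM in WT 1 and 2, and 12.1 to 17.2 CPM in AMPKα2-/-. The Lmx1b+/- libraries stood apart by 10 erythroid genes, summed to 3551 to 7518 CPM against 510 to 1252 CPM in embryonic WT and 1061 to 2383 CPM in Lmx1b-/-, and by 10 oligodendrocyte-lineage genes, summed to 210 to 274 CPM against 307 to 365 and 380 to 388 CPM. Astrocyte markers were lower there, with sums of 830 to 1011 CPM against 1100 to 1525 CPM in WT and 1282 to 1605 CPM in Lmx1b-/- (6 of 10 lower than WT), and neural progenitor markers summed to 1300 to 2055 CPM against 962 to 1026 and 1080 to 1191 CPM (3 of 10 higher than WT). The median log2 fold change of the progenitor markers against WT was only 0.12, and 3 of 10 were lower in sign. Of 10 hindbrain position genes 5 were higher in Lmx1b+/- than in WT, although their sums of 234 to 627 and 133 to 281 CPM overlapped. These counts of markers are by the edgeR test described below, where 17.3% of all tested genes were lower and 19.4% higher. Mitochondrially encoded genes took 10.4% to 13.9% of the counts in neonatal WT and 20.0% to 21.7% in AMPKα2-/-, and 5.57% to 6.74% in embryonic WT, 9.58% to 14.7% in Lmx1b+/- and 7.23% to 7.98% in Lmx1b-/-, so that this share moved with genotype without overlap, and its part in the differences between genotypes was not tested. All 10 neuronal markers were detected in every library. Their summed level was 4660 to 5666 CPM in neonatal WT and 5883 to 6301 CPM in AMPKα2-/-, without overlap. By edgeR 4 of 10 were higher and 1 lower there, where 3.77% of all tested genes were higher and 5.17% lower. In the embryos the sum was 5348 to 6591 CPM, and WT and Lmx1b+/- overlapped. The choroid plexus list (10 genes, 6 of them tested) was also apart in the neonatal libraries, at 24.7 to 34.0 CPM in WT and 51.6 to 151 CPM in AMPKα2-/-. The hindbrain position genes there summed to 203, 153 and 109 CPM in WT and to 48.0, 163 and 93.7 CPM in AMPKα2-/-, with overlap. All 10 were lower in sign (median log2 fold change -0.35), but 0 passed the edgeR test. Of 5 tested erythroid genes 2 were higher in AMPKα2-/- by edgeR, although the sums of 246 to 325 and 299 to 485 CPM overlapped. Lmx1b itself was at 22.5, 16.0 and 9.73 CPM in embryonic WT, at 30.5, 11.9 and 14.3 CPM in Lmx1b+/- and at 1.45, 1.13 and 0.848 CPM in Lmx1b-/-. Every Lmx1b-/- library was below every WT library, and the Lmx1b+/- values spanned most of the WT range. In bulk tissue, fewer cells of a type and less RNA per cell cannot be told apart.

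Differences between genotypes were tested over all genes that passed a filter on low counts with edgeR's quasi-likelihood F-test, and genes whose p, adjusted by Benjamini-Hochberg, was under 0.05 are called differentially expressed genes (DEG). Prkag3 did not pass this filter in either experiment, and the other 9 members did in both. In AMPKα2-/- against WT, 1 of the 9 tested members was a DEG, Camkk2, which was lower, where 8.94% of all 17397 tested genes were DEG (5.17% lower and 3.77% higher). In Lmx1b+/- against WT, 4 of 9 were DEG, where 36.7% of all 21729 tested genes were (17.3% lower and 19.4% higher), so that the members' share was near that of the background. Prkab2, Camkk2 and Prkaa2 were lower and Prkag1 was higher. Between Lmx1b-/- and WT, 0 of 9 were DEG by edgeR and by DESeq2, and 0 had an unadjusted p under 0.05, where 0.0184% of all genes were DEG. In Lmx1b-/- against Lmx1b+/-, 1 of 9 was a DEG, Prkab2, which was higher, where 25.5% of all genes were (14.0% lower and 11.5% higher). The libraries of both genotypes did not overlap in CPM for 1 of 9 members in AMPKα2-/- against WT (26.6% of all genes), for 5 of 9 in Lmx1b+/- against WT (45.3%), for 1 of 9 in Lmx1b-/- against WT (18.0%) and for 6 of 9 in Lmx1b-/- against Lmx1b+/- (42.4%). The comparisons within the Lmx1b experiment share libraries and are not independent of each other.

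**Figure D1:**
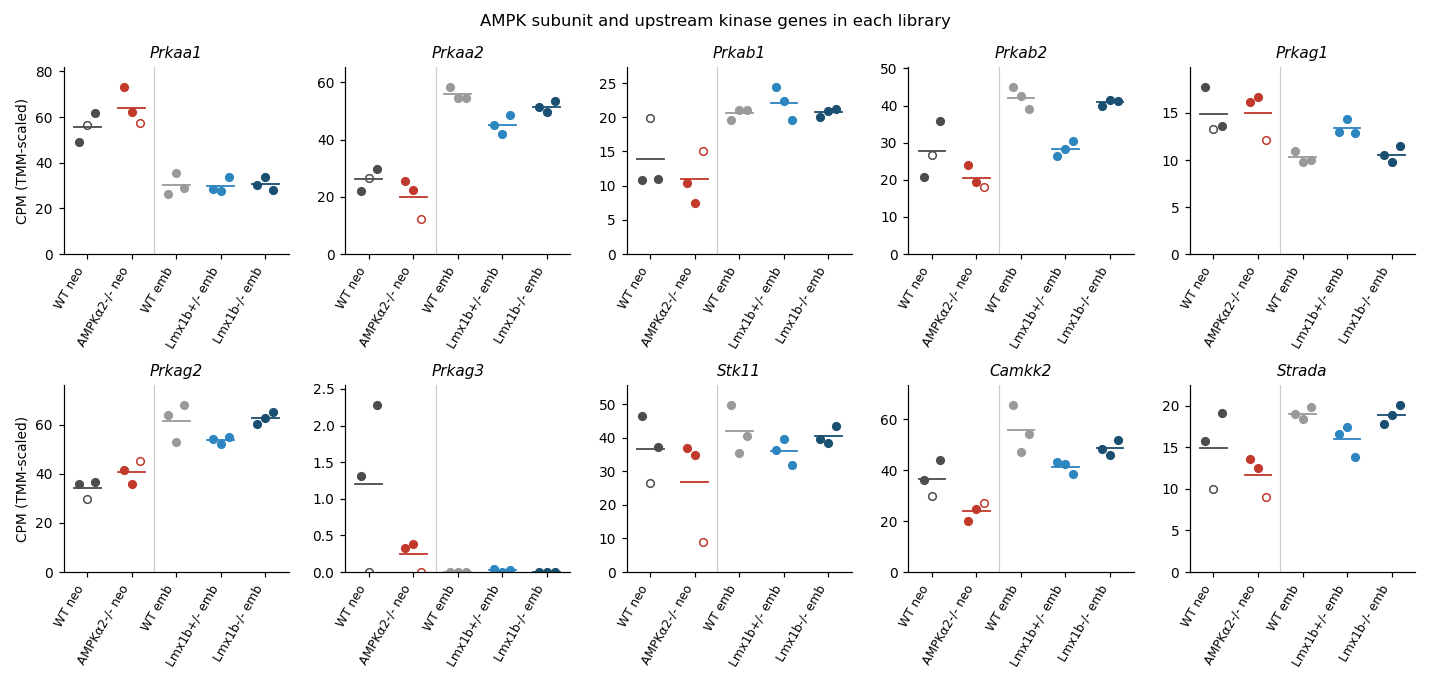
CPM (TMM-scaled within each experiment) of the 10 genes, with 1 point per library, open for the 2 shallow libraries, and a line at the mean of each group of 3. Prkaa2, Prkab2 and Camkk2 lie lower in all Lmx1b+/- libraries than in all embryonic WT libraries, and Prkag3 is near 0 in every embryonic library. The vertical line parts the experiments, which were scaled separately.

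Prkaa1, the gene of the widely expressed catalytic subunit, was at 49.2, 56.6 and 61.6 CPM in neonatal WT 1 to 3 and at 73.0, 62.2 and 57.4 CPM in AMPKα2-/- 1 to 3. The groups overlapped, and the log2 fold change was 0.25 (SE 0.18, edgeR adjusted p = 0.436). In the embryos it was at 26.3, 35.4 and 28.8 CPM in WT, at 28.5, 27.6 and 33.7 CPM in Lmx1b+/- and at 30.4, 33.7 and 28.2 CPM in Lmx1b-/-. All 3 genotypes overlapped, with log2 fold changes of -0.01 in Lmx1b+/- and 0.03 in Lmx1b-/- against WT (edgeR adjusted p = 0.957 and 0.967). The 95% intervals of these changes ran from -0.29 to 0.26 and from -0.25 to 0.30 on the log2 scale.

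Prkaa2, the gene of the catalytic subunit named in the knockout, was read from 333, 8 and 509 counts in neonatal WT and from 384, 344 and 4 counts in AMPKα2-/-, which correspond to 21.9, 26.6 and 29.7 CPM against 25.4, 22.3 and 12.1 CPM. The deep AMPKα2-/- libraries lay within the range of WT, and only the shallow AMPKα2-/- 3 lay below it. The log2 fold change was -0.20 with a 95% interval from -0.68 to 0.29 (edgeR adjusted p = 0.659), and it was 0.03 without WT 3. Since counts over a whole gene do not show which exons were read, these values do not check the genotype, and AMPKα2-/- is used as the label of the libraries. In the embryos Prkaa2 was at 58.2, 54.6 and 54.6 CPM in WT, at 45.0, 41.8 and 48.6 CPM in Lmx1b+/- and at 51.5, 49.5 and 53.6 CPM in Lmx1b-/-. Every WT library was above every Lmx1b-/- library, and these above every Lmx1b+/- library. The log2 fold change was -0.31 in Lmx1b+/- against WT (SE 0.09, edgeR adjusted p = 0.0162) and -0.11 in Lmx1b-/- against WT (SE 0.09, adjusted p = 0.733). The Lmx1b+/- call was lost when a single library was left out (edgeR adjusted p = 0.0560 without WT 1, 0.0502 without WT 3, 0.0505 without Lmx1b+/- 1 and 0.0734 without Lmx1b+/- 2) and in a fit of these 2 genotypes alone (adjusted p = 0.0597), and the change was -0.08 (adjusted p = 0.579) once a trend with gene length was removed from each library.

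Prkab1, the scaffold gene of the β1 isoform, was at 10.8, 20.0 and 11.03 CPM in neonatal WT and at 10.4, 7.51 and 15.1 CPM in AMPKα2-/-. The highest value of each group came from its shallow library, where Prkab1 had 6 and 5 counts. The log2 fold change was -0.31 (SE 0.30, edgeR adjusted p = 0.576). In the embryos it stayed between 19.6 and 24.4 CPM in all 9 libraries, and its log2 fold changes lay between -0.09 and 0.10 in the 3 comparisons (edgeR adjusted p = 0.498 to 0.989).

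Prkab2, the scaffold gene of the β2 isoform, was at 44.9, 42.6 and 39.0 CPM in embryonic WT, at 26.5, 28.2 and 30.5 CPM in Lmx1b+/- and at 40.0, 41.6 and 41.3 CPM in Lmx1b-/-. The 3 Lmx1b+/- libraries were below the 6 others, whereas WT and Lmx1b-/- overlapped. The log2 fold change was -0.57 in Lmx1b+/- against WT (SE 0.09, edgeR adjusted p = 0.000467) and 0.53 in Lmx1b-/- against Lmx1b+/- (SE 0.09, adjusted p = 0.00137). Both calls remained in all 12 alternatives, with log2 fold changes from -0.62 to -0.44 and from 0.41 to 0.58. Against WT, Lmx1b-/- differed by -0.04 on the log2 scale, with an interval from -0.24 to 0.16. In the neonatal libraries Prkab2 was at 20.7, 26.6 and 35.7 CPM in WT, against 23.9, 19.3 and 18.1 CPM in AMPKα2-/- (log2 fold change -0.40, SE 0.24, edgeR adjusted p = 0.328). Its highest neonatal value was in WT 3, the library with the skeletal muscle genes, and without that library the log2 fold change was 0.01. The part of these genes in the level of Prkab2 was not tested.

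Prkag1, the gene of the γ1 isoform, had the shortest gene length of the members in the deposited RPKM (2175 bases) and was at 11.01, 9.84 and 9.96 CPM in embryonic WT, at 12.96, 14.4 and 12.8 CPM in Lmx1b+/- and at 10.5, 9.77 and 11.5 CPM in Lmx1b-/-. All Lmx1b+/- libraries were above the other 6. The log2 fold change was 0.38 in Lmx1b+/- against WT (SE 0.12, edgeR adjusted p = 0.0247) and -0.34 in Lmx1b-/- against Lmx1b+/- (SE 0.12, adjusted p = 0.0563). The first call was lost without WT 2, WT 3 or Lmx1b+/- 2 (edgeR adjusted p = 0.0663, 0.0719 and 0.0542), without the filter on low counts (adjusted p = 0.0848) and with the length trend removed (0.27, adjusted p = 0.106), whereas the second passed with RLE size factors and with DESeq2 (adjusted p = 0.0487 and 0.0400). In the neonatal libraries it was at 17.7, 13.3 and 13.6 CPM in WT, against 16.2, 16.7 and 12.1 CPM in AMPKα2-/-, with a log2 fold change of 0.06 (edgeR adjusted p = 0.928).

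Prkag2, the gene of the γ2 isoform, which is known from heart and brain, had the highest mean CPM of the members in each embryonic group, at 64.2, 53.2 and 67.9 CPM in WT, 54.2, 52.0 and 55.2 CPM in Lmx1b+/- and 60.2, 62.6 and 65.2 CPM in Lmx1b-/-. WT 2 lay among the Lmx1b+/- libraries, and the log2 fold change of -0.20 in Lmx1b+/- against WT did not pass the test (SE 0.10, edgeR adjusted p = 0.136) except when WT 2 was left out (-0.29, adjusted p = 0.0295). In the neonatal libraries it was at 35.7, 29.9 and 36.7 CPM in WT, against 41.6, 35.8 and 45.3 CPM in AMPKα2-/- (log2 fold change 0.16, SE 0.20, edgeR adjusted p = 0.674). Prkag3 had 20, 0 and 39 counts in neonatal WT, 5, 6 and 0 counts in AMPKα2-/-, and 0 or 1 count in each of the 9 embryonic libraries. The neonatal WT counts were 1.32 CPM in WT 1 and 2.28 CPM in WT 3, the library with the skeletal muscle genes. The zeros of the shallow libraries allow up to 9.98 and 9.07 CPM, so that they add nothing on Prkag3. The filter kept Prkag3 out of the main test.

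Camkk2, the gene of the calcium-dependent upstream kinase, was at 35.9, 29.9 and 44.0 CPM in neonatal WT and at 20.1, 24.9 and 27.2 CPM in AMPKα2-/-. The groups did not overlap, and the gap between them lay between the 2 shallow libraries, in which Camkk2 had 9 counts each. The level in AMPKα2-/- was 0.593 times that in WT (log2 fold change -0.75, SE 0.22, edgeR adjusted p = 0.0302). The direction held in all 12 alternatives, with log2 fold changes from -0.84 to -0.50, but the call held in only 4 of them. Its edgeR adjusted p rose to 0.209 when WT 3 was left out, 0.283 without AMPKα2-/- 1, 0.0673 without AMPKα2-/- 2, 0.0693 without AMPKα2-/- 3, 0.133 without both shallow libraries, 0.0892 with a replicate block and 0.152 with the length trend removed. The adjusted p of DESeq2 was 0.117. In the embryos Camkk2 was at 65.3, 47.1 and 54.2 CPM in WT, at 43.0, 42.3 and 38.3 CPM in Lmx1b+/- and at 48.1, 45.9 and 51.9 CPM in Lmx1b-/-. All Lmx1b+/- libraries lay below the others (log2 fold change -0.43 against WT, SE 0.12, edgeR adjusted p = 0.0110). That call was lost without WT 1 (-0.30, adjusted p = 0.0543) and with the length trend removed (-0.14, adjusted p = 0.401), and Camkk2 had, at 10921 bases, the longest gene length of the members in the deposited RPKM. The part of the neonatal neuronal, choroid plexus, skeletal muscle, erythroid and hindbrain position markers in the change of Camkk2 in AMPKα2-/- was not tested. Lmx1b-/- and WT overlapped (log2 fold change -0.19, SE 0.12, edgeR adjusted p = 0.674).

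Stk11, the gene of LKB1, was at 46.5, 26.6 and 37.1 CPM in neonatal WT and at 37.1, 34.8 and 9.07 CPM in AMPKα2-/-, where the lowest value rests on 3 counts. The groups overlapped (log2 fold change -0.29, SE 0.24, edgeR adjusted p = 0.501). In the embryos it was at 49.7, 35.6 and 40.6 CPM in WT, at 36.4, 39.5 and 32.0 CPM in Lmx1b+/- and at 39.6, 38.5 and 43.5 CPM in Lmx1b-/-. The log2 fold changes of -0.22 in Lmx1b+/- and -0.05 in Lmx1b-/- against WT did not pass the test (edgeR adjusted p = 0.185 and 0.930). Strada, the gene of the pseudokinase that activates LKB1, was at 15.7, 9.98 and 19.1 CPM in neonatal WT and at 13.6, 12.5 and 9.07 CPM in AMPKα2-/- (log2 fold change -0.40, SE 0.26, edgeR adjusted p = 0.361). In the embryos it was at 19.0, 18.4 and 19.9 CPM in WT, at 16.6, 17.5 and 13.9 CPM in Lmx1b+/- and at 17.9, 18.8 and 20.0 CPM in Lmx1b-/-. The 3 Lmx1b+/- libraries were the lowest of the 9, but the change of -0.26 against WT did not pass the test (SE 0.12, edgeR adjusted p = 0.0999). The part of the erythroid, oligodendrocyte-lineage, astrocyte, progenitor and hindbrain position markers in the Lmx1b+/- values of any member was not tested.

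**Figure D2:**
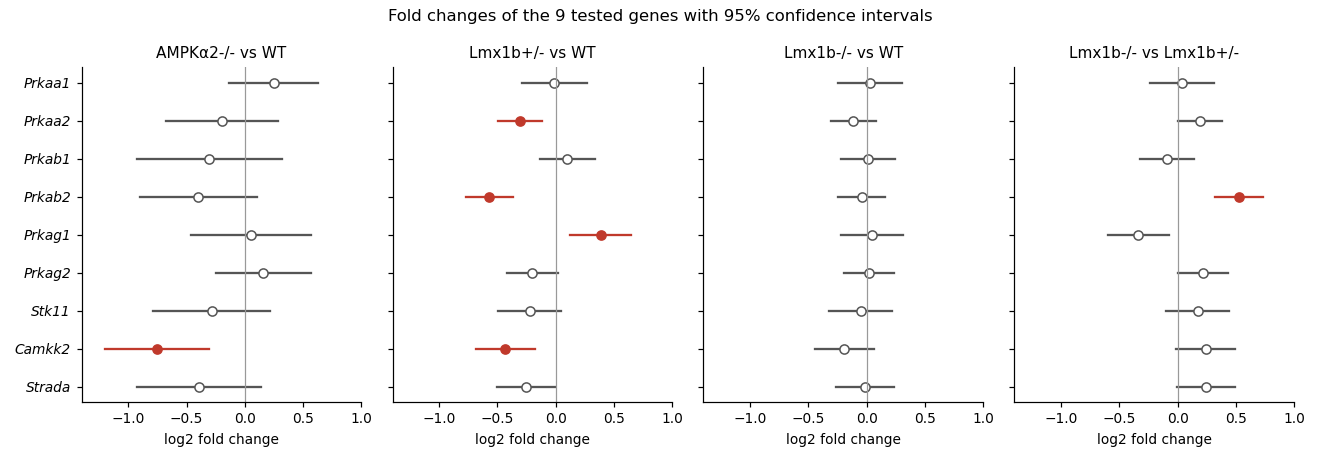
Log2 fold changes of the 9 tested genes (points) with 95% confidence intervals (lines) from the quasi-likelihood fits. Filled red points are DEG: Camkk2 in AMPKα2-/-, Prkaa2, Prkab2, Prkag1 and Camkk2 in Lmx1b+/- against WT, and Prkab2 in Lmx1b-/- against Lmx1b+/-.

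To compare levels between genes, the deposited RPKM (reads scaled to gene length and to the library total) were used. In neonatal WT, Prkaa1 was the most abundant member at 12.6 ± 1.95 RPKM (SD, n = 3), and its lowest library, 10.7 RPKM, was above the highest value of the next member, Stk11, at 8.42 ± 2.20 RPKM. From Stk11 down to Strada at 2.83 ± 0.97 RPKM, each member overlapped the next in the order Prkag1, Prkab2, Prkag2, Prkab1, Camkk2 and Prkaa2, the last at 3.45 ± 0.66 RPKM. Prkag3 stood apart at 0.35 ± 0.34 RPKM. In embryonic WT the order was led by Prkag2 at 10.3 ± 2.46 RPKM, Stk11 at 9.75 ± 1.72 RPKM and Prkab2 at 8.79 ± 0.62 RPKM, followed by Prkaa2, Prkab1, Prkaa1, Camkk2 and Prkag1, and each of these 8 overlapped the next. Strada, at 3.67 ± 0.65 RPKM, lay below Prkag1, at 5.03 ± 0.59 RPKM, in every library. Among the tested genes of each experiment, Prkaa1 was at the 81.2nd percentile of mean RPKM in neonatal WT and at the 69.5th in embryonic WT, and Prkaa2 at the 48.2nd and the 71.4th. Stk11 exceeded Camkk2 in RPKM by 1.79 to 4.39 times in every library but the shallow AMPKα2-/- 3, where the ratio was 0.795. This order rests on the gene lengths in the deposited RPKM, 10921 bases for Camkk2 and 4580 for Stk11, whereas the GENCODE transcripts used for the sequences have 2751 and 2566 bases. In CPM, Camkk2 was above Stk11 in embryonic WT, with means of 55.6 and 42.0 CPM. The RPKM order of the members and their isoform shares also use the lengths in the deposited tables, which for Prkaa1 and Prkaa2 equal those of the GENCODE transcripts (4655 and 7969 bases). Lengths of the other subunit genes differ, with 6480 deposited against 3331 transcript bases for Prkag2 and 2175 against 1652 for Prkag1. For Prkab1 they were 3066 against 2089 bases, and for Prkab2 they were close (5096 against 5006). The RPKM order and the β2 and γ2 shares thus rest on the deposited lengths, and transcript lengths were not tried.

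The α2 share, the part of Prkaa2 in the summed RPKM of Prkaa1 and Prkaa2, was 20.6%, 21.6% and 22.0% in neonatal WT and 16.9%, 17.3% and 10.95% in AMPKα2-/-. All AMPKα2-/- libraries lay below all WT libraries, by 6.35 percentage points on average (p = 0.1 by an exact two-sided permutation test, the smallest value that 3 against 3 allow, and 0.3 adjusted over the 3 shares). As plain counts, Prkaa2 made up 30.8% of both genes in WT 1 (Wilson 95% interval 28.1% to 33.6%) and 32.5% in WT 3 (30.2% to 34.9%), against 25.8% (23.6% to 28.1%) and 26.4% (24.0% to 28.8%) in AMPKα2-/- 1 and 2. The shallow libraries, with 25 and 23 counts on both genes, had intervals of 17.2% to 51.6% and 6.98% to 37.1%, which overlap each other. All these intervals cover counting error only, and libraries of a group differed by more than counting error over all genes. They do not test the genotypes. In the embryos the share was 56.3%, 47.4% and 52.6% in WT, 48.0%, 46.9% and 45.7% in Lmx1b+/- and 49.7%, 46.2% and 52.6% in Lmx1b-/-. The 3 embryonic genotypes overlapped (exact permutation test of F over 1680 arrangements, p = 0.193).

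Between the experiments, the α2 share was 21.4% ± 0.68 (SD, n = 3) in neonatal WT and 52.1% ± 4.49 (SD, n = 3) in embryonic WT. Prkaa1 thus held most of the α RPKM in the libraries called neonatal, while both genes held similar parts in the embryonic ones. The 3 neonatal values lay below the 3 embryonic values (p = 0.1 by the same exact test). Over all genotypes, the 6 neonatal libraries (18.2% ± 4.16) lay below the 9 embryonic ones (49.5% ± 3.61). An exact permutation test over 5005 arrangements gave p = 0.000200, the smallest it can give, and 0.000599 adjusted over the 3 shares. The neonatal side of this test includes the 3 AMPKα2-/- libraries, in which Prkaa2 is the gene named in the knockout. The summed α RPKM was 16.1 ± 2.62 in neonatal and 14.4 ± 1.83 in embryonic WT, and these ranges overlapped. A share within a library does not depend on how the libraries were scaled, but age and experiment cannot be told apart. The 10 oligodendrocyte-lineage genes summed to 14079 to 24322 CPM in the neonatal and to 210 to 388 CPM in the embryonic libraries, and Melk, a kinase of dividing cells, had 0 or 1 count in each neonatal library and 106 to 232 counts in the embryonic ones. The age of the neonatal libraries was not tested, nor was the part of tissue composition in the isoform shares.

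The β2 share, the part of Prkab2 in Prkab1 and Prkab2, was 57.9%, 54.8% and 52.7% in embryonic WT, 39.6%, 43.1% and 48.3% in Lmx1b+/- and 54.5%, 54.5% and 53.9% in Lmx1b-/-. All Lmx1b+/- libraries lay below the other 6, with a mean 11.5 percentage points below WT, and the genotypes differed (exact permutation test of F, p = 0.0250, 0.0482 adjusted over the 3 shares). This p was 0.0607 without WT 1, 0.05 without WT 2, 0.05 without Lmx1b-/- 2 and 0.0536 without Lmx1b-/- 3 (exact permutation tests). In the deposited RPKM, Prkab2 is the longer gene (5096 bases, against 3066 for Prkab1). The part of the gene-length trend in this share was not tested. Neonatal WT had β2 shares of 53.5%, 44.5% and 66.1%, the highest in the library with the skeletal muscle genes, and AMPKα2-/- had 58.1%, 60.7% and 41.9%. The groups shared their range (exact permutation test, two-sided, p = 0.9), and neonatal and embryonic WT did too (54.7% ± 10.8 and 55.1% ± 2.59, p = 1 by the same exact test).

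The γ2 share, the part of Prkag2 in Prkag1, Prkag2 and Prkag3, was 66.2%, 64.5% and 69.6% in embryonic WT, 58.4%, 54.8% and 59.0% in Lmx1b+/- and 65.8%, 68.3% and 65.6% in Lmx1b-/-. The Lmx1b+/- libraries were again below the other 6, by 9.34 percentage points against WT on average (5.62 points when counts were not divided by length), and the genotypes differed (exact permutation test of F, p = 0.0321, 0.0482 adjusted over the 3 shares). In the deposited RPKM, Prkag2 is the longest gene of its class (6480 bases, against 2175 for Prkag1). The part of the gene-length trend in the γ2 share was not tested either. In neonatal WT the share was 39.3%, 43.0% and 45.2%, and in AMPKα2-/- it was 46.0%, 41.5% and 55.7%, with overlap (exact permutation test, two-sided, p = 0.4). The neonatal WT mean of 42.5% ± 2.96 lay 24.2 percentage points below the embryonic WT mean of 66.7% ± 2.62, with no overlap (exact p = 0.1, the smallest possible). The 6 neonatal and the 9 embryonic libraries did not overlap for α2 but did for γ2, where AMPKα2-/- 3 (55.7%, from 19 counts) was above Lmx1b+/- 2 (54.8%). The γ3 share was 0 to 4.93% in neonatal WT, highest in WT 3, up to 0.793% in AMPKα2-/- and up to 0.0686% in the embryos.

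**Figure D3:**
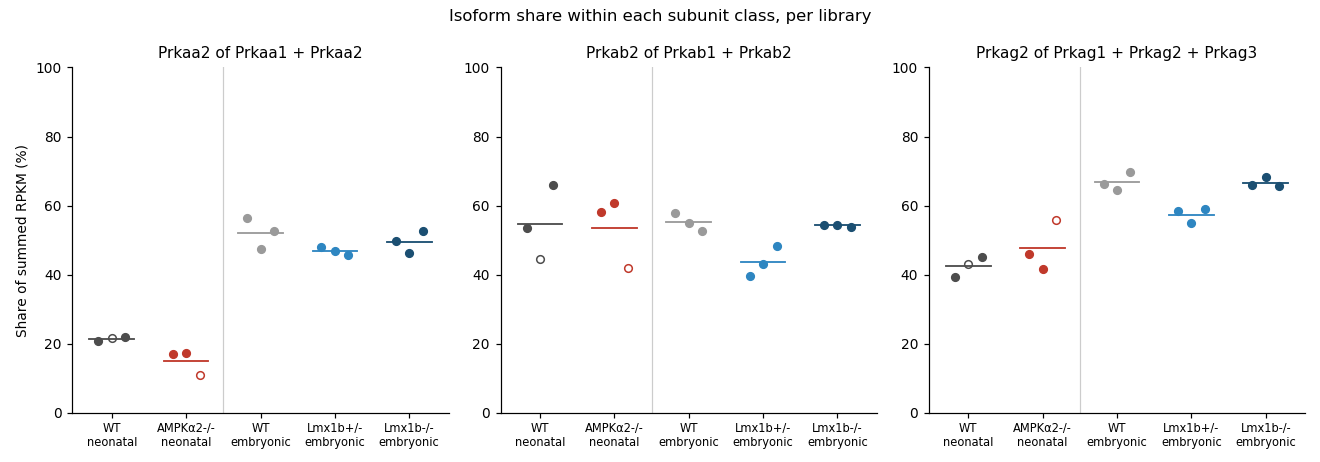
Share of Prkaa2, Prkab2 and Prkag2 in the summed RPKM of their subunit class, with 1 point per library, open for the 2 shallow libraries, and a line at each group mean. The α2 share is 10.95% to 22.0% in the neonatal and 45.7% to 56.3% in the embryonic libraries, and the β2 and γ2 shares are lower in Lmx1b+/- than in the other embryonic groups.

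The summed β RPKM relative to the summed α RPKM was 0.569, 0.757 and 0.625 in neonatal WT and 0.428, 0.386 and 0.613 in AMPKα2-/-, with overlap only through the shallow AMPKα2-/- 3. In the embryos this ratio was 1.06 to 1.17 in WT, 0.927 to 1.15 in Lmx1b+/- and 1.11 to 1.18 in Lmx1b-/-. The ratio of γ to α RPKM lay between 0.693 and 1.05 in the neonatal and between 0.881 and 1.31 in the embryonic libraries, and all genotypes overlapped within each experiment.

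Beyond these genes, 16 other regulators that act on AMPK (CAMKK1, the MO25 and STRAD paralogs, TAK1 and TAB1, sestrins, folliculin and its partners, and phosphatase subunits), 13 AMPK-related kinases that LKB1 also phosphorylates or that share the kinase family, and 22 known substrates were followed. In AMPKα2-/- against WT, 0 of 16 upstream regulators were DEG by edgeR and by DESeq2, with 3 at an unadjusted p under 0.05 and a median log2 fold change of -0.19, where all genes had a median of -0.01. Of the 12 tested AMPK-related kinases, 6 were lower and 0 higher, with a median of -0.59, where 5.17% of all tested genes were lower and 3.77% higher. Brsk2 and Brsk1, neuronal kinases of axon polarity, fell by 0.85 and 0.77 on the log2 scale (SE 0.18 and 0.17, edgeR adjusted p = 0.00589 and 0.00783). Of the 22 substrates, 3 were lower and 0 higher, with a median of -0.53, against the same background. The neuronal and choroid plexus markers and the mitochondrially encoded share moved between these libraries too. All 10 tested skeletal muscle genes were DEG and lower, with a high summed level in WT 3 only, and all 10 hindbrain position genes were lower in sign. Without WT 3 all DEG numbered 548, against 1555 as reported. The part of these markers and of this share in the kinase and substrate values was not tested. Hdac4, a class IIa histone deacetylase, fell by 0.82 (SE 0.22) and Srebf1, a factor of lipid synthesis, fell by 0.66 (SE 0.19) on the log2 scale (edgeR adjusted p = 0.0237 and 0.0299). Without both shallow libraries 0 genes of these lists were DEG, and 6 of all 18088 genes then tested were, although 3657 had an unadjusted p under 0.05.

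In Lmx1b+/- against WT, 8 of 16 upstream regulators were DEG, 3 higher and 5 lower, with a median log2 fold change of -0.08 against -0.03 for all genes, of which 36.7% were DEG (17.3% lower and 19.4% higher). Ppp2ca, the catalytic subunit of phosphatase 2A, was higher (0.42, SE 0.11, edgeR adjusted p = 0.00802), as was Cab39l, an MO25 paralog (0.65, SE 0.19, adjusted p = 0.0170), and Sesn3, a stress-induced sestrin, and Fnip2, a folliculin partner, were lower (-0.73 and -0.46, SE 0.10 and 0.11, adjusted p = 0.000119 and 0.00574). Of 13 AMPK-related kinases 8 were lower and 0 higher, led by Mark4, a microtubule affinity-regulating kinase, and Sik3, a salt-inducible kinase (-0.67 and -0.66, SE 0.13 each, edgeR adjusted p = 0.00117 and 0.00156). Of 22 substrates 15 were lower and 1 higher. Gabbr2, a subunit of the metabotropic GABA receptor, and Kif5a, a neuronal kinesin, were lower (-1.10 and -0.71, SE 0.10 and 0.11, edgeR adjusted p = 6.24e-06 and 0.000267), and Mff, the mitochondrial fission factor, was higher (0.62, SE 0.10, adjusted p = 0.000588). The medians were -0.42 for the related kinases and -0.47 for the substrates. With the length trend removed, 5 of the 13 related kinases and 8 of the 22 substrates were DEG. All DEG then numbered 6269 of 21729 tested genes, against 7977 as reported.

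Between Lmx1b-/- and WT, 0 genes of these lists were DEG by edgeR and by DESeq2, with 1, 0 and 1 at an unadjusted p under 0.05, and the medians were 0.01, -0.18 and -0.07. In Lmx1b-/- against Lmx1b+/-, where 25.5% of all genes were DEG (11.5% higher and 14.0% lower), 4 of 16 upstream regulators were higher and 0 lower, led by Sesn3 and Ppm1e, an AMPK phosphatase (0.67 and 0.43, SE 0.10 and 0.09, edgeR adjusted p = 0.000380 and 0.00503). Of 13 related kinases 6 were higher, led by Snrk and Mark4 (0.39 and 0.46, SE 0.09 and 0.13, edgeR adjusted p = 0.00654 and 0.0179), and of 22 substrates 11 were higher, led by Gabbr2 and Kif5a (0.97 and 0.79, SE 0.10 and 0.11, adjusted p = 4.13e-05 and 0.000252), and Mff was lower (-0.39, SE 0.10, adjusted p = 0.0154). With the length trend removed, 1 of the 13 related kinases and 4 of the 22 substrates were DEG. All DEG then numbered 3663 of 21729 tested genes, against 5544 as reported. The 2 comparisons with Lmx1b+/- share its 3 libraries.

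**Figure D4:**
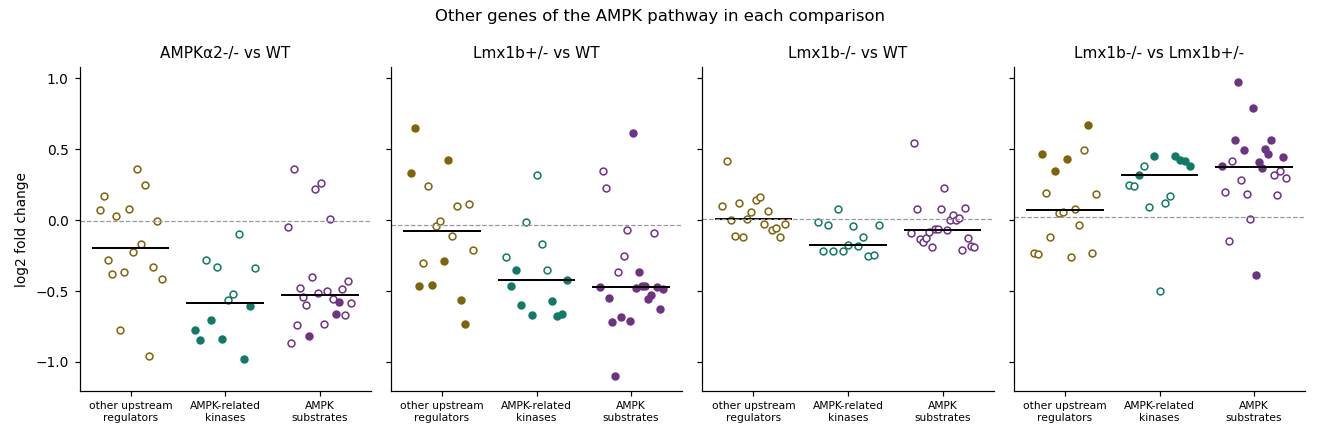
Log2 fold changes of the tested genes of each list, with 1 point per gene, filled for DEG, a black line at the list's median and a dashed line at the median of all tested genes. In Lmx1b-/- against WT no point is filled, and the medians lie between -0.18 and 0.01.

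Over the 9 embryonic libraries, the genes whose log2 CPM ran most like that of Prkaa1 among 10425 genes with a mean of at least 10 CPM were Npat, Ccdc186 and Mtmr2 (Pearson r = 0.971, 0.971 and 0.963). Those most like Prkaa2 were Klf8, Pde4d and Fam13c (r = 0.973, 0.944 and 0.942), and those most like Stk11 were Gsk3a, Arhgef10l and Fzr1 (r = 0.989, 0.987 and 0.984). The libraries share genotype, depth and tissue composition, so these values are descriptions. Among the members, Prkab2 and Camkk2 ran with Prkaa2 (r = 0.88 and 0.78), Prkag1 ran against it (r = -0.76), and Prkaa1 was nearly unrelated to it (r = 0.03). Stk11 ran with Camkk2 and Strada (r = 0.90 and 0.74) and against Prkaa1 (r = -0.74). Many genes outside the members had a higher r. From the highest r down, Prkab2 ranked 79 and Camkk2 824 of 10425 genes for Prkaa2. For Stk11, Camkk2 ranked 289 and Strada 1725. The genes that ran against them, Prkag1 for Prkaa2 and Prkaa1 for Stk11, ranked 9123 and 9772.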

How the data were processed

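RNA-seq was performed on poly(A) RNA with a directional kit that carries molecular indexes. The authors aligned the reads with HISAT2 within systemPipeR (the submitters' processing notes name build GRCm39) and deposited whole-number counts per gene and RPKM values for each experiment. How reads were counted, the strand setting and the use of the molecular indexes are not given in the sources used here. The RPKM are the counts divided by gene length and library total, each experiment on its own. These totals include a single gene that took 4.56% to 22.7% of the counts in the embryonic libraries. In the neonatal libraries the same gene took 7.78% to 16.9%. Its part in the RPKM levels and their spread was not tested, and the isoform shares within a library do not depend on the total. Of 57180 identifiers, 51884 had a symbol. Columns were matched to samples by genotype and number. The column of neonatal WT 3 carries a suffix, and that of embryonic WT 3 the number 4 of its library name.

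In R 4.3.3, edgeR 4.0.16 was run on the counts with filterByExpr, TMM scaling and the quasi-likelihood F-test, in 1 fit per experiment with genotype as the term, and p was adjusted by Benjamini-Hochberg over every gene tested. CPM are counts over TMM-scaled totals, and log2 CPM took a prior count of 2. Isoform shares were taken from the RPKM and compared by exact permutation. No 2 libraries of a group agreed within counting noise. The methods were tested on simulated data. Alternatives were RLE size factors, no filter, DESeq2 1.42.0, a replicate block, each library left out, both shallow libraries left out, fits of 2 genotypes, shares from counts, all libraries for the shares by age and, chosen after seeing the data, removal of a length trend (lowess, span 0.3) from each library. For the other lists, the 2 DEG of smallest p in each direction are named. The members and gene lists were chosen with earlier results of these data known. Coding sequences came from GENCODE M21 (GRCm38), and no coordinates are given, since the files use another build.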

Additional observations from a re-analysis of the deposited data

How the results depend on the processing

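Settings were changed 1 at a time. In AMPKα2-/- against WT, the DEG among the members numbered 2 without the filter on low counts, which brought Prkag3 into the test. That call rests on 20, 0 and 39 counts in WT and 5, 6 and 0 counts in AMPKα2-/-. The highest count is from WT 3, the library with the skeletal muscle genes, and both zeros are from the shallow libraries. The DEG among the members numbered 0 with DESeq2, with the replicate block, without both shallow libraries and with the length trend removed. The related kinases numbered 3 with DESeq2, with the block and with the length trend removed and 0 without the shallow libraries, and the substrates numbered 0 under the last 2 settings. All DEG of this comparison numbered 1555 as reported, 650 with DESeq2, 901 with the length trend removed, 548 without WT 3, 605 without AMPKα2-/- 3 and 2958 without WT 1. With the length trend removed, an alternative chosen after seeing the data, 1 member, 5 related kinases and 8 substrates were DEG in Lmx1b+/- against WT, and 1 related kinase and 4 substrates in Lmx1b-/- against Lmx1b+/-. All DEG under this setting numbered 6269 of 21729 tested genes in the former and 3663 of 21729 in the latter comparison. In the latter, 2 members were DEG with RLE size factors and with DESeq2. Between Lmx1b-/- and WT, all DEG numbered 4 as reported, 329 without the filter and 36 with DESeq2. The cause of these shifts was not tested.

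Leaving out 1 library at a time in AMPKα2-/- against WT gave 0 to 2 DEG among the members, 0 to 2 among the upstream regulators, 1 to 7 among the related kinases and 0 to 13 among the substrates. The ranges were 2 to 4, 5 to 8, 7 to 10 and 11 to 18 in Lmx1b+/- against WT, and 1 to 1, 2 to 7, 1 to 6 and 6 to 16 in Lmx1b-/- against Lmx1b+/-. Where this left a group with 2 libraries, the spread was pooled over groups.

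Fold changes that changed sign were small and passed no test. On the log2 scale, the length trend's removal gave 0.039 for Prkaa2 and -0.067 for Prkag1 in AMPKα2-/-, 0.093 for Prkaa1 in Lmx1b+/- against WT, -0.0014 for Prkab1 and 0.0027 for Strada in Lmx1b-/- against WT, and -0.061, -0.013 and -0.018 for Prkaa1, Prkaa2 and Camkk2 in Lmx1b-/- against Lmx1b+/-. Between Lmx1b-/- and WT, Prkab1 was at -0.0018 with RLE size factors, -0.0065 without the filter and -0.020 in the fit of 2 genotypes, which gave -0.0020 for Prkaa1 and -0.0074 for Prkag2. With 1 library left out, the signs changed within -0.35 to 0.033 for Prkaa2, -0.67 to 0.0063 for Prkab2 and -0.064 to 0.25 for Prkag1 in AMPKα2-/-, and within -0.10 to 0.12 for Prkaa1 in Lmx1b+/- against WT. The ranges for Lmx1b-/- against WT were -0.059 to 0.16 for Prkaa1, -0.023 to 0.033 for Prkab1, -0.12 to 0.0055 for Prkab2, -0.15 to 0.089 for Stk11, -0.076 to 0.068 for Prkag2, -0.019 to 0.099 for Prkag1 and -0.055 to 0.029 for Strada, and against Lmx1b+/- it was -0.068 to 0.13 for Prkaa1.

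Replicate numbers are shared between genotypes but did not pair the libraries: same-numbered libraries' deviations correlated above 0.1 in 0 of 3 neonatal and 1 of 9 embryonic pairs. With the number as a block, Camkk2 in AMPKα2-/- was at -0.68 (edgeR adjusted p = 0.0892), Prkag1 at -0.056, and 3 related kinases were DEG in Lmx1b-/- against Lmx1b+/-. The β2 and γ2 differences of -11.5 and -9.34 percentage points between Lmx1b+/- and WT had p = 0.0833 when permuted within blocks (exact permutation test). With 1 library left out, the β2 difference ran from -13.8 to -9.42 points. The γ2 difference between neonatal and embryonic WT was -17.6 points from counts not divided by length and -18.5 points over all 15 libraries. Depth limits the neonatal comparison, since 2 of its 6 libraries hold 3 to 19 counts of each member other than Prkag3.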
